A study of Mus musculus with 20 samples.

Results

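The results below concern ribosomes captured through RPL22, a protein of the large ribosomal subunit, in mouse E14 embryonic stem cells. They rest on 4 of the 20 libraries of the series: 2 libraries of captured ribosomes and 2 of all ribosomes of the same line, chosen by their titles. All 8588 transcripts listed for these libraries were used, of 9498 listed anywhere in the series. The measurement was ribosome profiling, in which RNase digests the mRNA that ribosomes do not cover and the protected fragments (footprints) are sequenced. The design asks whether ribosomes that carry a given ribosomal protein hold a different mixture of mRNAs from all ribosomes of the cell. The same was done for RPL10A and RPS25 in other lines.

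Cells of both groups carried Rpl22-3xHA, an HA epitope tag on 1 allele of the endogenous gene, so the untagged allele was present as well. They were given 100 µg/ml cycloheximide, which arrests elongating ribosomes, for 1 min before harvest. For the capture, the RNase-treated lysate was incubated with an anti-HA antibody for 4 hr and then with protein A beads for 1 hr. For the total, ribosomes of the lysate were pelleted through a sucrose cushion. The labels do not say whether the line is 1 clone or whether replicates came from separate cultures, so a p-value here reflects library-to-library spread alone, which may be technical. A pair of points in the labels bear on every result: the total libraries carry the same anti-HA antibody label as the captures, although their titles and the protocol call them total, and the treatment text of these libraries also describes siRNA transfection, although their genotype label names no siRNA. The comparison lines carried 3xFLAG-Rpl10a or Rps25-3xFLAG on 1 allele and were captured with anti-FLAG beads for 2 hr.

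RPL22 sits at the surface of the large subunit. It is known for being dispensable for bulk translation, for a close relative, RPL22L1, that can take its place, and for its need in lymphocyte development. An HA-tagged RPL22 is also the handle of the RiboTag method, which pulls down ribosomes to read which mRNAs a cell type is translating. A ratio of captured to total footprints near 1 means that an mRNA makes up the same share of footprints on tagged ribosomes as on all ribosomes.

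Transcripts are given by UCSC identifier, because none of the 8588 identifiers could be matched to a gene symbol in the reference tables used here. Stem cell markers, the Rpl22 transcript itself and lists of genes by function were therefore not analysed. Values are RPKM, read numbers divided by transcript length and by library size. They summed to 1115464 and 1126445 RPKM in the total libraries and to 1201737 and 1188425 in the captures, with medians between 24.7 and 25.4 RPKM. The read depth behind them is unknown. RPKM is a share of a library, and fewer cells with an mRNA and fewer footprints per cell cannot be told apart.

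The RPL22 capture resembled the total closely. The log2 ratio of capture to total, taken as the difference of mean log2(RPKM + 1), had quartiles of −0.17 and 0.12 and a median of −0.03, and only 101 transcripts differed by 1.5-fold or more, 63 higher and 38 lower in the capture. A 2-fold difference was reached by 4, of which 3 were higher and 1 lower. The 3 higher ones stood at or below 3.4 RPKM in both total libraries, where a difference rests on few footprints. Every listed transcript reached at least 5 RPKM in 1 library, so these 3 were listed only through a capture, which favours a higher ratio. Their capture values ranged from 0.1 to 17.1 RPKM. No transcript passed the test without a replicate block (limma, Benjamini-Hochberg adjusted p below 0.05, 0% of 8588 in either direction). The smallest adjusted p in limma was 0.105. A fit with replicate number as a block did call transcripts, as given in the section on processing. Without adjustment, 1734 (20.2%) had a p below 0.05: 762 were higher (8.87%) and 972 lower (11.3%), with median ratios of 0.34 and −0.34. The direction of the majority depended on the scaling: with libraries scaled to the same total 362 were higher and 1911 lower, and with library medians aligned 937 were higher and 746 lower. The unadjusted count fell without the first total, the second total or the first capture, but not without the second capture.

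The data limit most differences to a small size. The 95% confidence interval of the ratio (limma, for each transcript alone) lay within 2-fold either way for 8496 transcripts (98.9%) and within 1.5-fold for 6885 (80.2%). The capture libraries did not overlap the total libraries for 1845 transcripts with a higher capture (21.5%) and 2697 with a lower one (31.4%). These shares are the background for the transcripts that follow.

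The extremes were taken among transcripts with a mean level no lower than the median of the table, and with captures all above or all below the totals. uc009jay.1 had 147.6 and 201.9 RPKM in the total libraries and 294.1 and 345.6 in the captures. Its log2 ratio was 0.88 (SE 0.14, limma adjusted p = 0.105), the highest of this class. Both captures lay above both totals by the rule of choice, and the gap between the groups was wider than the spread in either.

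uc008gxy.1 had 58.8 and 92.8 RPKM in the totals and 117.6 and 145.7 in the captures. Its log2 ratio was 0.82 (SE 0.19, limma adjusted p = 0.116), and without the first total library it was 0.49. The second total library stood closer to the first capture than to the first total, so the size of this ratio depends on the total that is used.

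uc009vfb.1 had the lowest ratio of all transcripts. It stood at 457.3 and 389.3 RPKM in the totals, or 423 ± 48.1 (SD, n = 2), and at 22.6 and 152.1 in the captures, or 87.4 ± 91.6. The log2 ratio was −2.81 (SE 0.64, 95% interval −4.26 to −1.37, limma adjusted p = 0.116). The captures disagreed by 2.70 on the log2 scale, the largest gap between them for any transcript at or above the median level. Each lay below both totals, which the rule of choice required. Without the second capture the ratio was −4.16 (limma adjusted p = 0.0415), and without the first it was −1.47.

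uc009bft.2 was next, at 32.2 and 33.8 RPKM in the totals against 16.8 and 21.6 in the captures, a log2 ratio of −0.76 (SE 0.13, limma adjusted p = 0.105). Both captures lay below both totals by the rule of choice, and the spread within each group was smaller than the difference between them. In this class the low-ratio side thus held 1 transcript far from the rest, and the next one differed by 1.69-fold.

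**Figure D1:**
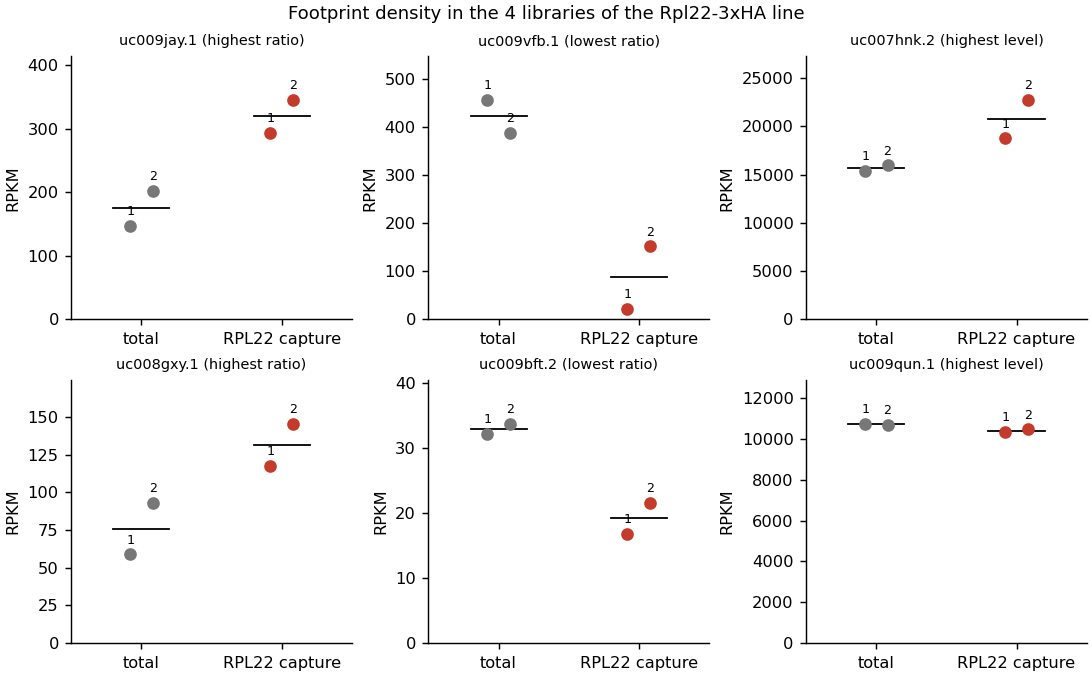
RPKM (linear axis from 0) in the total libraries (grey) and RPL22 capture libraries (red) for the transcripts named in the text, 2 each by highest ratio, lowest ratio and highest level. Points are single libraries with their replicate number and bars are group means. Capture and total do not overlap in any panel, which the rule of choice required of the transcripts taken by ratio. The captures of uc009vfb.1 lie far apart, at 22.6 and 152.1.

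At the top of the level range, uc007hnk.2 had the highest mean level, with 15356.1 and 15950.8 RPKM in the totals and 18756.8 and 22739.7 in the captures. Its log2 ratio was 0.40 (SE 0.11, limma adjusted p = 0.140). uc009qun.1 followed with 10766.5 and 10705.2 RPKM in the totals and 10344.1 and 10478.1 in the captures. Its log2 ratio was −0.04 (SE 0.09, 95% interval −0.25 to 0.16), so the 2 transcripts of highest level differed in their ratios. In the FLAG lines, whose tables were normalized separately, uc007hnk.2 stood between 429.5 and 1970.0 RPKM in the totals. Its log2 ratio there was larger, at 2.13 in the RPL10A and 1.04 in the RPS25 capture. The RPL22 ratio lay 1.18 below their mean, which did not pass the test (SE 0.39, limma interaction contrast, adjusted p = 0.104).

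Ratios leaned upward with level. The median log2 ratio was −0.07 in the lowest quintile of transcripts by mean level (median level 6.62 RPKM) and 0.03 in the highest (median level 205 RPKM). The share of transcripts with a ratio above 0 went from 38.5% to 55.9%. The difference of 0.10 between these medians was 0.03 without the first capture library and 0.15 without the second. With libraries scaled to the same total, both medians were below 0, at −0.16 and −0.06. Capture libraries themselves differed by level: the second minus the first had a median of 0.07 in the lowest quintile and −0.02 in the highest. With level taken from the total libraries of the FLAG lines, which share no library with the ratio, the medians were −0.05 in the lowest and 0.01 in the highest quintile.

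The lean was clearest among the 232 transcripts with a mean of 1000 RPKM or more, a class chosen after the values were seen. Their median log2 ratio was 0.15, with quartiles of 0.00 and 0.30, and 175 of them (75.4%) were above 0, against 44.1% of all transcripts. In 137 of the 232 both captures exceeded both totals, and in 25 both lay below, next to 21.5% and 31.4% of all transcripts. Together these transcripts held 50.2% and 51.1% of all RPKM in the totals and 52.9% and 53.2% in the captures. The groups did not overlap in this share. The two-sided exact permutation test gave p = 0.333, the smallest that 2 libraries against 2 allow, so it cannot decide here. The class was chosen by the mean of totals and captures together, so its choice and its ratios share libraries. After scaling every library to the same total, the median of the class was 0.06 with 140 above 0, and the median of all transcripts was −0.12. The class lay 0.18 above all transcripts under the deposited scale and under this one.

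**Figure D2:**
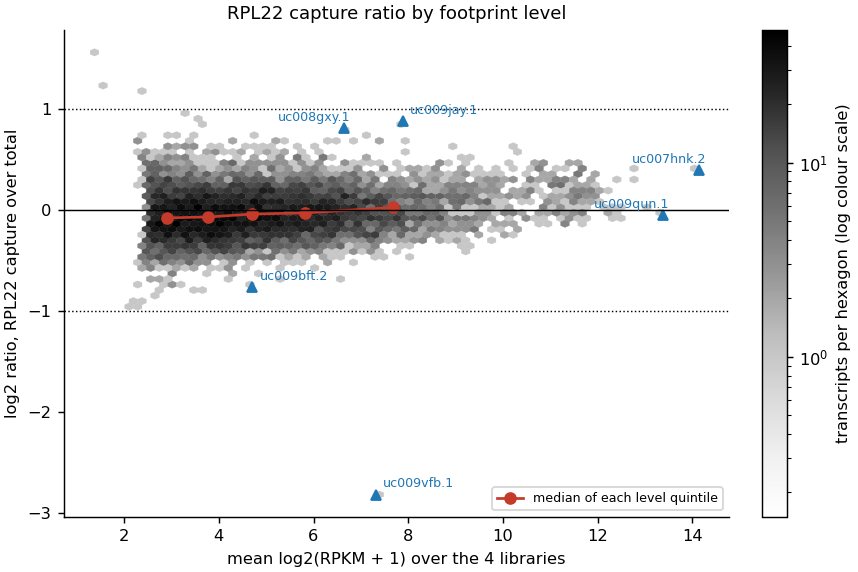
Log2 ratio of RPL22 capture over total (vertical) against the mean log2(RPKM + 1) of the 4 libraries (horizontal) for 8588 transcripts. Grey hexagons are shaded by the number of transcripts, dotted lines mark 2-fold, red points are medians of level quintiles and blue triangles are the transcripts named in the text. Nearly all transcripts lie within 2-fold, the medians go from −0.07 to 0.03, and uc009vfb.1 stands alone at −2.81.

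The capture libraries were not equally far from the total. The SD of log2 differences across transcripts was 0.193 between the totals and 0.233 between the captures. It was 0.302 and 0.287 between the first capture and each total, but 0.264 and 0.213 between the second capture and the first and second total. By this SD the second capture was closer to the second total than to the other capture. By the median absolute difference it was not, at 0.130 from the second total and 0.127 from the other capture. The count of transcripts that differed 1.5-fold or more was 420 for the first capture against the first total and 112 for the second capture against the second total, next to 172 between the captures and 101 between the totals.

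RPL22 ratios were then set beside those of the FLAG captures over the 7605 transcripts listed for all 3 lines. The SD of the log2 ratio was 0.22 for RPL22, 0.41 for RPL10A and 0.33 for RPS25. In the full tables, 101 of 8588 transcripts differed 1.5-fold or more in the RPL22 capture, against 1429 of 8505 in the RPL10A and 878 of 8779 in the RPS25 capture. The interval of the ratio lay within 1.5-fold for 22.6% of transcripts in the RPL10A line and 38.1% in the RPS25 line, both below the 80.2% for RPL22. The median SE of the ratio was also larger in these lines, at 0.21 for RPL10A and 0.18 for RPS25 against 0.12 for RPL22. The wider ratios and intervals of the FLAG lines thus include more library-to-library spread. These differences in spread between lines were not tested, and antibody, incubation, lysis buffer and line differed together between RPL22 and the others, so they cannot be told apart.

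**Figure D3:**
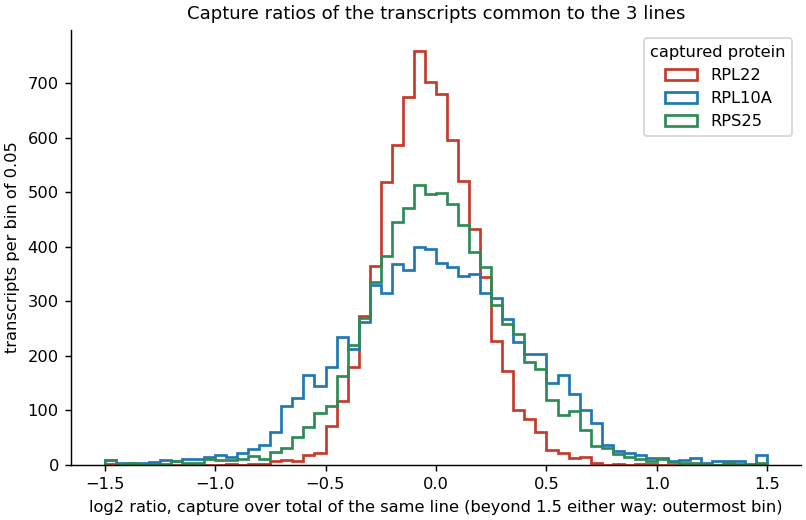
Histograms of the log2 ratio of capture over total (horizontal, bins of 0.05) against the number of transcripts (vertical) for 7605 transcripts in the RPL22 (red), RPL10A (blue) and RPS25 (green) captures. Ratios beyond 1.5 either way are in the outermost bins. The RPL22 ratios are the most tightly gathered, with an SD of 0.22 against 0.41 and 0.33. Their median SE in the full tables was also the smallest, at 0.12 against 0.21 and 0.18.

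The median RPL22 ratio hardly varied with the ratios of the other captures. From the lowest to the highest quintile of transcripts by the mean RPL10A and RPS25 ratio, that mean went from −0.40 to 0.41 (medians), while the median RPL22 ratio was −0.02 and −0.04. Tested as the difference between the RPL22 ratio and the mean of the FLAG ratios, 135 transcripts (1.78% of 7605) were higher for RPL22 and 114 (1.5%) lower (limma interaction contrast over 12 libraries, adjusted p below 0.05). The higher ones had a median ratio of 0.33 in the RPL22 capture, −0.59 in the RPL10A and −0.43 in the RPS25 capture. The lower ones had medians of −0.27, 0.55 and 0.54. The choice of these transcripts fixes that the captures point apart. The RPL22 ratio was nearer 0 than both FLAG ratios in 79 of the 135 and in 76 of the 114.

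This count rests on all of the RPL22 libraries and on several others. It was 0 without the first or second RPL22 total, the first or second RPL22 capture, or the first or second RPS25 total, and 3 without the first RPL10A total. It was 581 without the second RPL10A total, 524 without the first RPL10A capture and 557 without the second RPS25 capture. Libraries scaled to the same total gave 100 higher and 217 lower, so the direction of the majority depends on the scaling. Against the RPS25 ratio alone 2 transcripts differed, and against the RPL10A ratio alone 177 did. The fit takes the same spread for every line, although the median SE differed between the lines.

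Of the transcripts named above, uc008gxy.1 passed this test. Its log2 ratio of 0.82 in the RPL22 capture stood against −0.48 in the RPL10A and −0.59 in the RPS25 capture, a difference of 1.35 from their mean (SE 0.26, limma adjusted p = 0.0316). With single libraries left out the difference ranged from 1.02 to 1.67. It no longer passed without any 1 of the RPL22 libraries, the first RPL10A total or either RPS25 total, where limma adjusted p ran from 0.0579 to 0.208. For uc009bft.2 the FLAG captures had ratios of 0.07 and 0.05, and the difference of −0.82 did not pass (SE 0.27, limma adjusted p = 0.0995). uc009vfb.1 was low in all 3 captures, with −2.91 for RPL10A and −3.46 for RPS25, and its difference of 0.37 carried an SE of 0.72 (limma adjusted p = 0.798). uc009jay.1, at 351.9 and 389.8 RPKM in the totals of the RPS25 line and 290.3 and 307.5 in its captures, had a ratio of −0.31 there and was not listed for the RPL10A line.

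**Figure D4:**
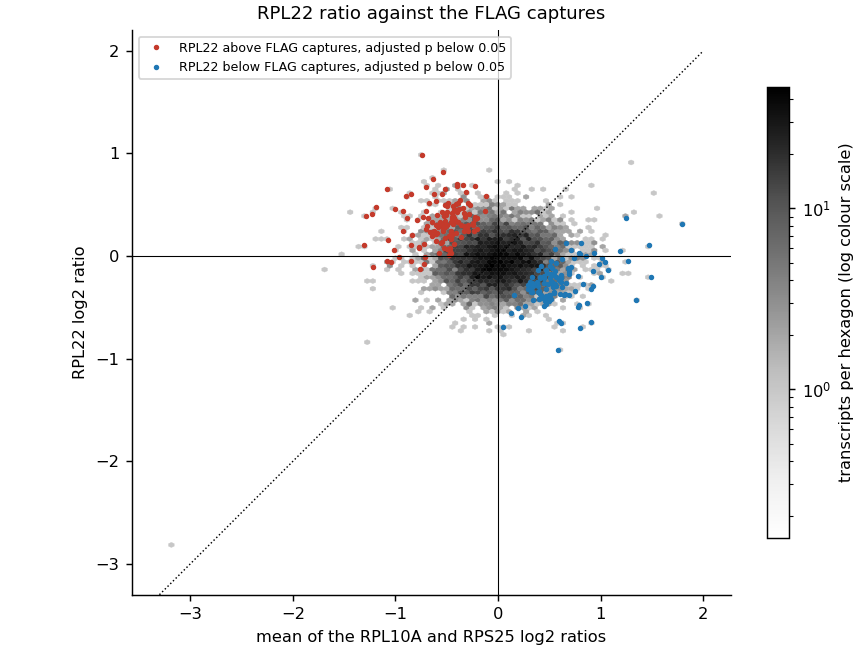
RPL22 log2 ratio (vertical) against the mean of the RPL10A and RPS25 log2 ratios (horizontal) for 7605 transcripts. Grey hexagons are shaded by the number of transcripts, the dotted line marks equal ratios, and coloured points are the 135 transcripts above (red) and 114 below (blue) the FLAG captures at adjusted p below 0.05. The point at the lower left, near the line of equal ratios, is uc009vfb.1.

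Position on polysomes was measured in separate cultures of wild-type cells given a control siRNA, as RNA-seq of heavy fractions (at least 4 ribosomes per mRNA) and of all lighter fractions, 2 libraries each. Across 7489 transcripts, the RPL22 ratio and the heavy-minus-light log2 contrast had a Pearson r of 0.12 (Spearman rho 0.15), a weak relation given here as a description. From the most light to the most heavy quintile, the median RPL22 ratio went from −0.07 to 0.02 and the share above 0 from 38.7% to 53.1%. Footprint level moved along with it, from a median of 17.2 to 62.4 RPKM, and level had an r of 0.27 with the contrast. Within quintiles of level, r for the RPL22 ratio ran from 0.05 to 0.13. In cells given an Rpl10a siRNA instead, r was −0.00 (Spearman rho 0.01) over all transcripts and −0.16 in the highest level quintile. The difference between the siRNAs was not tested.

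**Figure D5:**
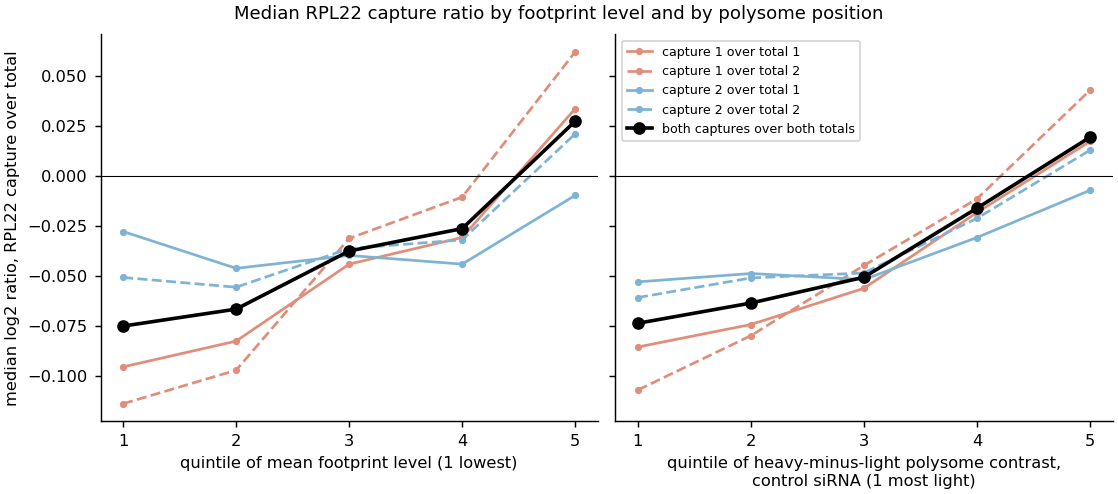
Median log2 ratio of RPL22 capture over total (vertical) in quintiles of footprint level (left) and in quintiles of the heavy-minus-light contrast under control siRNA (right). Black is the ratio of both captures to both totals, and coloured lines are each capture against each total. The black line goes from −0.07 to 0.03 by level and from −0.07 to 0.02 by polysome position, and the lines of the first capture are steeper than those of the second.

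The polysome contrast was also read for the transcripts with the smallest p-values in the RPL22 comparison. None of these passed the adjusted test without a replicate block, and their split by direction depended on the scaling. Of the 762 with a higher capture at an unadjusted p below 0.05, 654 were measured in the polysome libraries, where their median contrast under control siRNA was 0.28 and 62.5% lay on the heavy side. Of the 972 with a lower capture, 883 were measured, with a median of −0.18 and 40.1% on the heavy side. Over all 7489 measured transcripts the median was −0.02 and the heavy share 49.2%. With the Rpl10a siRNA this order was not seen: the medians were 0.08 for the higher, 0.19 for the lower and 0.19 for all. The differences between these lists were not tested. Level differed as well: median levels were 62.7 RPKM for the higher, 27.7 for the lower and 25.2 for all. Its part in the result was not tested.

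The same contrast under control siRNA was read for the transcripts that separated RPL22 from the FLAG captures. Of the 114 below the FLAG captures, 109 were measured and 26 of them (23.9%) were on the heavy side, with a median contrast of −0.41. Of the 135 above, 123 were measured and 76 (61.8%) were on the heavy side, with a median of 0.28. Over the 7263 measured of the common transcripts the median was −0.00 and the heavy share 49.9%. With the Rpl10a siRNA the medians were −0.53 for those below, 0.22 for those above and 0.20 for all. Both lists were empty when any 1 RPL22 library was left out, and the FLAG ratios entered their choice. Those ratios leaned the other way from the RPL22 ratio. Under control siRNA, Pearson r with the contrast was −0.11 in the RPS25 capture (7704 transcripts) and −0.05 in the RPL10A capture (8084 transcripts), against 0.12 in the RPL22 capture. Under Rpl10a siRNA these values were −0.11, −0.08 and −0.00. The part of each capture in the medians of the lists was not tested.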

How the data were processed

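Ribosome footprints were measured in 12 libraries and polysome RNA in 8, with 2 replicates per group, and groups were taken from the titles. Per the file headers, the authors deposited RPKM values for each footprint library and values named RPM for each polysome library. Some RPM columns had sums above what that unit allows, so these deposited values were treated as a scaled signal. The submitters' processing notes name cutadapt, Bowtie2, STAR and mm10 for the RPL22 libraries, without versions or filters. Every transcript of the RPL22 table reached at least 5 RPKM in 1 of its libraries. Planned gene lists could not be applied, since no identifier matched a symbol; genes by function are not analysed here.

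Tests used limma 3.58.1 in R 4.3.3 on log2(RPKM + 1), two-sided, with a variance trend, on all listed transcripts. This scale understates differences at low values. The fits were tried on simulated data with independent libraries of equal spread, which cannot speak to pairing or to unequal spread between lines. Named transcripts were the 2 highest and 2 lowest ratios at or above the median level with groups that did not overlap, the 2 with the highest level, and the 2 with the largest gap between captures and the 2 with the largest gap between totals. The transcripts, lists and tests were chosen with earlier results of these data known. Alternatives were other pseudocounts, scalings, a minimum of 10 RPKM, other variance moderation, a replicate block and leaving out each library. Depth is unknown, so no counting intervals are given.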

Additional observations from a re-analysis of the deposited data

Results flagged for a closer look

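The difference between lines calls for a closer look because the RPL22 ratio and the mean FLAG ratio differed in a direct test (limma interaction contrast, adjusted p below 0.05). Of 7605 transcripts, 135 were higher for RPL22 and 114 lower. In 79 of the 135 and 76 of the 114 the RPL22 ratio was nearer 0 than both FLAG ratios. Among the named transcripts, uc008gxy.1 passed the same test, with a difference of 1.35 on the log2 scale (SE 0.26, limma adjusted p = 0.0316). These calls were not stable: 0 transcripts were called without any 1 of the RPL22 libraries or either RPS25 total, 3 without the first RPL10A total, and 7 without a variance trend. uc008gxy.1 did not pass in any of the fits that left out 1 of these 7 libraries (limma adjusted p from 0.0579 to 0.208). Antibody, incubation, buffer and line changed together and cannot be told apart.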

How the results depend on the processing

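For the RPL22 capture, 0 transcripts were called under every pseudocount (0.1, 0.5 and 5), scaling, filter and variance setting tried without a replicate block. The smallest adjusted p in these limma fits lay between 0.0641 and 0.201. Over the common transcripts 0 were called as well. There the smallest adjusted p in limma was 0.101 with the 4 libraries and 0.443 with all 12. With single libraries left out, 0 to 1 were called. A replicate block gave 692, of which 392 were higher and 300 lower. With it uc009jay.1, uc008gxy.1, uc009vfb.1, uc009bft.2 and uc007hnk.2 passed (limma adjusted p from 0.000233 to 0.0163), and uc009qun.1 did not. The numbers were not taken to pair the libraries, since no label ties them to a culture or day and there are only 2 pairs. Same-numbered deviations had r = 0.18. Ratios from single libraries correlated at r = 0.47 when formed by number and 0.29 when crossed. Whether the numbers mark pairs is unknown. At an unadjusted p below 0.05 the higher share was 43.9% as deposited, 15.9% with libraries scaled to the same total and 55.7% with medians aligned.

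The count that separates RPL22 from the FLAG captures was 249, and 7 without a variance trend, 117 with the replicate block, 2 against RPS25 alone, and 0 to 581 with single libraries left out. For uc009vfb.1 this difference ran from −0.98 to 1.72. The level difference ran from 0.0347 to 0.154 and r with the polysome contrast from 0.0807 to 0.146. The causes were not tested. RPKM has 1 decimal, and the unknown depth limits the lowest values.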

Other observations

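Beside uc009vfb.1, 3 transcripts at or above the median level were chosen for the largest gaps between captures or between totals. uc007qcj.1 stood at 30.9 and 29.3 RPKM in the totals, and at 55.5 and 26.4 in the captures. uc007zyx.1 had 33.7 and 15.1 RPKM in the totals and 42.3 and 22.4 in the captures, so its first libraries were the higher ones on both sides. uc007mtu.2 had 20.1 and 34.0 RPKM in the totals and 28.9 and 34.9 in the captures. In each of them the captures and totals overlapped.

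The 983 RPL22-line transcripts not listed in 1 or both FLAG tables had a median level of 9.47 RPKM and a median log2 ratio of −0.00, against 27.9 RPKM and −0.04 for the common ones. Differences of 1.5-fold or more were found in 2.54% of the former and 0.999% of the latter. The 1099 transcripts outside the polysome table had a median level of 13.5 RPKM, and 2.73% differed by 1.5-fold or more, against 0.948% of those inside it.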
